A study of Schmidtea mediterranea with 6 samples.

Results

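The gene examined was the planarian cyclin B gene model SMESG000028669.1, 1 of 30917 gene models counted in every library and 1 of the 14700 with enough reads to be tested. It was taken by its identifier, with its change in these libraries already known, and its reads were compared between exoc3(RNAi) and gfp(RNAi) animals and set beside genes of similar read count. The study's annotation described the model as a G2/mitotic-specific cyclin-B2, listed a cyclin B-1 mRNA as its matching transcript and reported a cyclin N-terminal domain. Which B-type cyclin it is was therefore not settled, and the model is called cyclin B here. Its sequence, length and position in the genome were not analysed here.

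The samples were X1 cells of Schmidtea mediterranea, a freshwater flatworm that replaces its tissues from stem cells called neoblasts. X1 is the fraction sorted from dissociated animals by Hoechst DNA stain and the live-cell stain Calcein-AM, and it holds the dividing, irradiation-sensitive neoblasts. The exoc3(RNAi) animals received injections of double-stranded RNA that targeted Smed-exoc3, which encodes a subunit of the exocyst, the complex that tethers secretory vesicles to the plasma membrane. The gfp(RNAi) animals received double-stranded RNA of gfp, which has no match in the planarian genome. Both groups were starved worms of 5 to 5.5 mm, injected on 3 consecutive days and again on 3 consecutive days in a second round 12 days after the first, and both were sampled on the same day of the injection scheme. Each group had 3 libraries, described by the study as biological replicates, and no source said how many animals went into each. A single double-stranded RNA was used against Smed-exoc3, so an effect of the target and an effect of that RNA cannot be told apart.

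B-type cyclins bind and activate the kinase Cdk1, and the complex drives cells into mitosis. Their mRNA is made mainly between the end of DNA replication and mitosis, and the protein is destroyed at anaphase after the anaphase-promoting complex marks it with ubiquitin. In planarians the neoblasts are the dividing cells of the body, so transcripts of mitotic genes come largely from them and are lost after irradiation. A read count in a bulk library does not separate more cells that hold the transcript from more transcript per cell, and these cannot be told apart for any gene below.

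The oligonucleotides that define the knockdown, and those the study listed for a B-type cyclin transcript, are shown because they say which Smed-exoc3 fragment was targeted and which cyclin B amplicon was designed. The letters are in the order of the study's primer list, and the strand direction of the reverse primers was not checked. The cyclin B1-like pair was not matched to SMESG000028669.1 here, so it may belong to another B-type cyclin.
Smed-exoc3 double-stranded RNA template, forward primer: tcacgagcagataagtgact
Smed-exoc3 double-stranded RNA template, reverse primer: cccattctctgaaccattgca
cyclin B1-like RT-qPCR, forward primer: gtttcttcgtccactttcgc
cyclin B1-like RT-qPCR, reverse primer: agcttgaacatgcgagggatg

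Libraries held 28897363 to 37525894 reads assigned to genes, and the stem cell genes that mark this fraction were present in every library, with at least 2849 reads each. The targeted gene, Smed-exoc3 (SMESG000022604.1), had 31.9, 31.2 and 42.5 normalised reads (CPM, scaled to a common library total) in exoc3(RNAi) replicates 1, 2 and 3, against 70.2, 74.0 and 72.7 CPM in gfp(RNAi), a log2 fold change (exoc3(RNAi) over gfp(RNAi), called the log2 change below) of -1.04 (SE 0.09, edgeR quasi-likelihood test, adjusted p = 5.72e-07). Replicate 3 of exoc3(RNAi) therefore kept more of the targeted transcript than replicates 1 and 2. It also stood apart from them on the second principal component, at -20.7 against 10.6 and 13.8. The cyclin B change is therefore also given without it, whereas most changes of other genes are given only with it.

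Cyclin B transcripts were higher in exoc3(RNAi) X1 cells. After scaling by TMM, a method that corrects library totals for a few strongly changed genes, cyclin B had 144.4, 139 and 128.3 CPM in exoc3(RNAi) replicates 1, 2 and 3. In gfp(RNAi) replicates 1, 2 and 3 it had 122.1, 115.1 and 119.2 CPM. All 3 exoc3(RNAi) libraries lay above all 3 gfp(RNAi) libraries, with replicate 3 the lowest of its group and closest to the controls. The gap between that library and the highest gfp(RNAi) library was 6.18 CPM, compared with a difference of 18.4 CPM between the group means.

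The group means were 137.2 ± 8.19 CPM in exoc3(RNAi) and 118.8 ± 3.53 CPM in gfp(RNAi) (SD, n = 3 each). On the log2 scale the change was 0.21 (SE 0.04, 95% confidence interval 0.11 to 0.30), which is an increase of 15.5% (8.14 to 23.4%). It passed edgeR's quasi-likelihood test with a Benjamini-Hochberg adjusted p of 0.00139 over all genes tested. A call alone singled out little in these libraries, because 53.0% of the genes tested were called and 25.8% were called higher in exoc3(RNAi). Libraries did not overlap between the groups for 60.8% of the genes tested, with 30.1% higher in exoc3(RNAi). The exact two-sided permutation test on the cyclin B values alone gave p = 0.1, the smallest that 3 against 3 libraries allow.

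**Figure D1:**
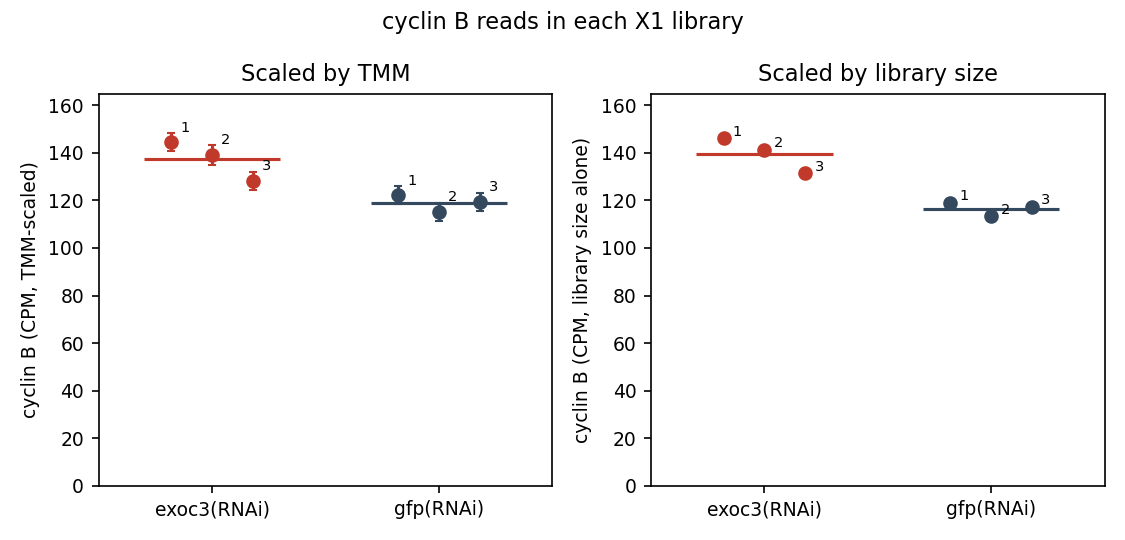
Normalised read count of cyclin B (CPM, axis from 0) in the 3 exoc3(RNAi) libraries and the 3 gfp(RNAi) libraries, numbered by replicate, scaled by TMM on the left and by library size alone on the right. Horizontal lines are group means and the bars on the left are 95% Poisson intervals of the counting error. All exoc3(RNAi) points, from 128.3 to 144.4 CPM by TMM, lie above all gfp(RNAi) points, from 115.1 to 122.1 CPM.

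Depth did not limit this value. Cyclin B was covered by 5484, 4082 and 4514 reads in exoc3(RNAi) replicates 1, 2 and 3, against 3910, 3558 and 3968 reads in gfp(RNAi), 25516 reads in all. Counting error was 1.35% at the largest and 1.68% at the smallest of these numbers. The spread between replicates was larger, with a coefficient of variation of 5.97% in exoc3(RNAi) and 2.97% in gfp(RNAi). The Poisson interval of exoc3(RNAi) replicate 3, 124.6 to 132.1 CPM, overlapped that of gfp(RNAi) replicate 1, 118.3 to 126 CPM. These intervals cover counting error only.

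Relative to the gfp(RNAi) mean, cyclin B stood at 121.5, 117 and 108% in exoc3(RNAi) replicates 1, 2 and 3. The gfp(RNAi) libraries themselves ranged over 96.9 to 102.8%. Without exoc3(RNAi) replicate 3 the log2 fold change was 0.26 (edgeR adjusted p = 5.28e-09), and without replicate 1 it was 0.17 (adjusted p = 0.00893). The size of the increase thus depended on which exoc3(RNAi) library was present, whereas its direction and its call did not.

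The increase was also present before TMM scaling, and it was larger there. With library size alone cyclin B had 146.1, 141.3 and 131.6 CPM in exoc3(RNAi) replicates 1, 2 and 3, against 119, 113.3 and 117.4 CPM in gfp(RNAi). The log2 change was then 0.26 (edgeR adjusted p = 0.000146). The TMM factors were 1.01 to 1.03 in exoc3(RNAi) and 0.975 to 0.985 in gfp(RNAi), and they moved every gene towards lower values in exoc3(RNAi). Ordered by reads within a library, cyclin B ranked 1123rd, 1168th and 1253rd in exoc3(RNAi) replicates 1, 2 and 3, against 1432nd, 1546th and 1476th in gfp(RNAi). These ranks are of reads and not of transcript number, since gene length was not used.

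Set against the other called genes in these cells, the cyclin B change was small. The median absolute log2 fold change was 0.38 over the 7784 called genes, and 82.6% of them changed by more than cyclin B did. Over all 14700 genes tested the median absolute log2 fold change was 0.25 and the median log2 fold change was 0.02, against 0.21 for cyclin B.

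To judge it against genes of similar read count, cyclin B was set beside the 505 genes whose mean log2 CPM lay within 0.25 of its own, a range of 107.4 to 155.7 CPM. Of these genes 75.2% were called, which is above the 53.0% of all genes tested. Calls in this range were more often lower than higher, with 155 genes higher and 225 lower in exoc3(RNAi). Their median log2 fold change was -0.05, with quartiles of -0.31 and 0.15 and a range of -1.53 to 1.1. Cyclin B lay above 81.8% of them, and 92 genes had a larger signed change. By absolute size it lay near the middle, since 51.7% of these genes changed by more in either direction.

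**Figure D2:**
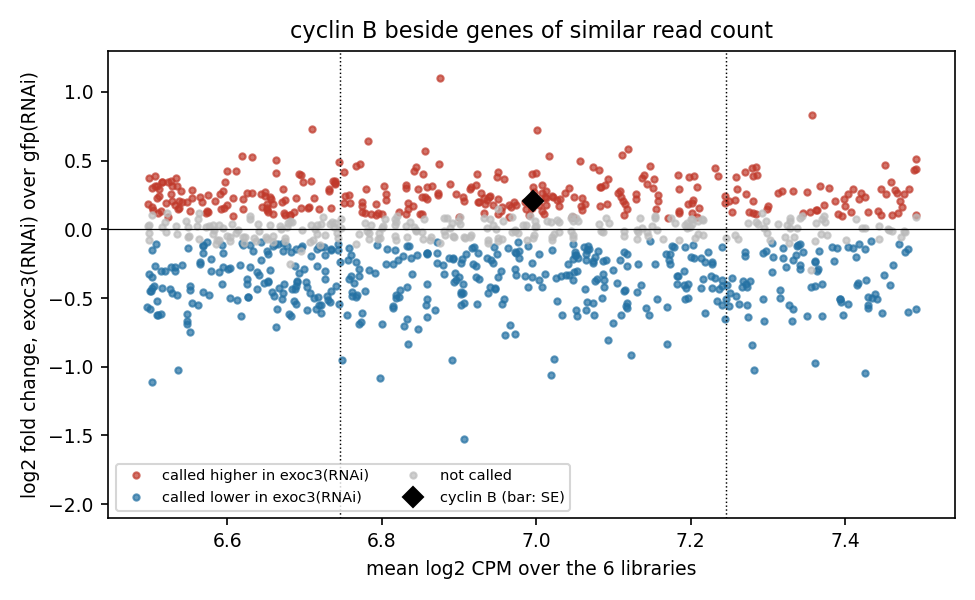
Log2 fold change, exoc3(RNAi) over gfp(RNAi), of genes within 0.5 log2 units of the mean read count of cyclin B (x axis, mean log2 CPM over the 6 libraries), with dotted lines at 0.25. Each point is a gene, coloured by its edgeR call, and the diamond is cyclin B with its SE. Cyclin B, at 0.21, sits in the upper part of the cloud but inside it.

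Cyclin B was less reproducible than most genes of this range. Its within-group standard deviation on the log2 scale was 0.07, compared with a median of 0.05 for the 505 genes, and 411 of them had a smaller one. Its SE of 0.04 was likewise larger than that of 413 of them. The smallest change called in the range was 0.08 and the largest not called was 0.15, and the cyclin B change was above both. With the range widened to 0.5 log2 units, 1002 genes were included and cyclin B lay above 81.7% of them. The largest absolute change not called in that wider range was 0.30, above the cyclin B change.

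Among the genes nearest to cyclin B in read count, those that carried a description moved in opposite directions. The annotation describes mainly changed genes, so that both were called says little. Of the undescribed ones, SMESG000017245.1, the nearest of all, and SMESG000014105.1 were not called, at -0.065 and -0.044 (edgeR adjusted p = 0.189 and 0.411). SMESG000069520.1 and SMESG000024137.1 were called higher, at 0.305 and 0.27. The gene for checkpoint kinase 2, CHEK2 (SMESG000002981.1), a kinase that halts the cycle after DNA damage, had 149, 148.3 and 142.4 CPM in exoc3(RNAi) against a mean of 110.9 ± 1.14 CPM in gfp(RNAi) (SD, n = 3). The log2 change was 0.40 (SE 0.03, edgeR adjusted p = 5.07e-07), and its libraries did not overlap between the groups. The gene for ubiquitin specific peptidase 7 (SMESG000001751.1), a deubiquitinating enzyme, averaged 113 CPM in exoc3(RNAi) and 144 CPM in gfp(RNAi), a log2 change of -0.35 (edgeR adjusted p = 2.72e-05).

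The listed genes that act with cyclin B in mitosis were mostly lower where cyclin B was higher. Of 9 mitotic genes examined 1 was called higher and 8 were called lower in exoc3(RNAi), beside 25.8% and 27.1% of all genes tested. None of the 9 overlapped between the groups, and neither did 60.8% of all genes tested. The median log2 fold change of these genes was -0.46, against 0.02 over all genes tested. Their names came from the study's annotation, which covers mainly genes that had changed in these libraries. The numbers called and without overlap are therefore not independent evidence.

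Polo-like kinase 1, PLK1 (SMESG000022441.1), helps to activate Cdk1 with cyclin B at mitotic entry and acts on the spindle. It had 311.5, 309.3 and 277.3 CPM in exoc3(RNAi) replicates 1, 2 and 3, against 352.2, 345.2 and 346.2 CPM in gfp(RNAi). All exoc3(RNAi) libraries were below all gfp(RNAi) libraries, and replicate 3 was again the lowest. The log2 change was -0.22 (SE 0.04, edgeR adjusted p = 0.000673), close in size to that of cyclin B and opposite in sign.

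BIRC5 (SMESG000033647.1), the survivin subunit of the chromosomal passenger complex, was the mitotic gene that moved with cyclin B. It had 31.3, 31.7 and 27.3 CPM in exoc3(RNAi), against 25.4, 24.1 and 25.8 CPM in gfp(RNAi), with a log2 change of 0.26 (SE 0.06, edgeR adjusted p = 0.00373). As for cyclin B, exoc3(RNAi) replicate 3 was the lowest of its group but still above the controls.

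Subunits of the anaphase-promoting complex, the ubiquitin ligase that marks cyclin B for destruction, were lower. CDC27 (SMESG000032470.1) had 55.5, 56.2 and 51.3 CPM in exoc3(RNAi), against 70.2, 72.6 and 71.7 CPM in gfp(RNAi), a log2 change of -0.40 (SE 0.04, edgeR adjusted p = 4.61e-06). ANAPC2 (SMESG000022225.1) had 8.82, 7.83 and 7.30 CPM in exoc3(RNAi) against 9.74, 9.67 and 9.89 CPM in gfp(RNAi), a log2 change of -0.29 (SE 0.08, adjusted p = 0.0113). The ANAPC2 values rested on 230 to 335 reads a library, far fewer than those of cyclin B.

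The 2 largest decreases among mitotic genes were those of a spindle motor and a kinetochore protein. KIF15 (SMESG000064131.1), a kinesin of the mitotic spindle, had 91.2, 89.3 and 82.8 CPM in exoc3(RNAi) against 137, 145.3 and 143 CPM in gfp(RNAi), a log2 change of -0.69 (SE 0.04, edgeR adjusted p = 3.55e-08). NDC80 (SMESG000040783.1), which attaches kinetochores to microtubules, had 30.9, 31.7 and 29.8 CPM in exoc3(RNAi) against 43.8, 45.6 and 44.9 CPM in gfp(RNAi), a log2 change of -0.54 (SE 0.04, adjusted p = 5.11e-07). Both decreases were larger in absolute size than the cyclin B increase. The others that fell, ZW10 of the spindle checkpoint, the kinesin KIF4B and the Ran exchange factor RCC1, lay between -0.53 and -0.46.

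**Figure D3:**
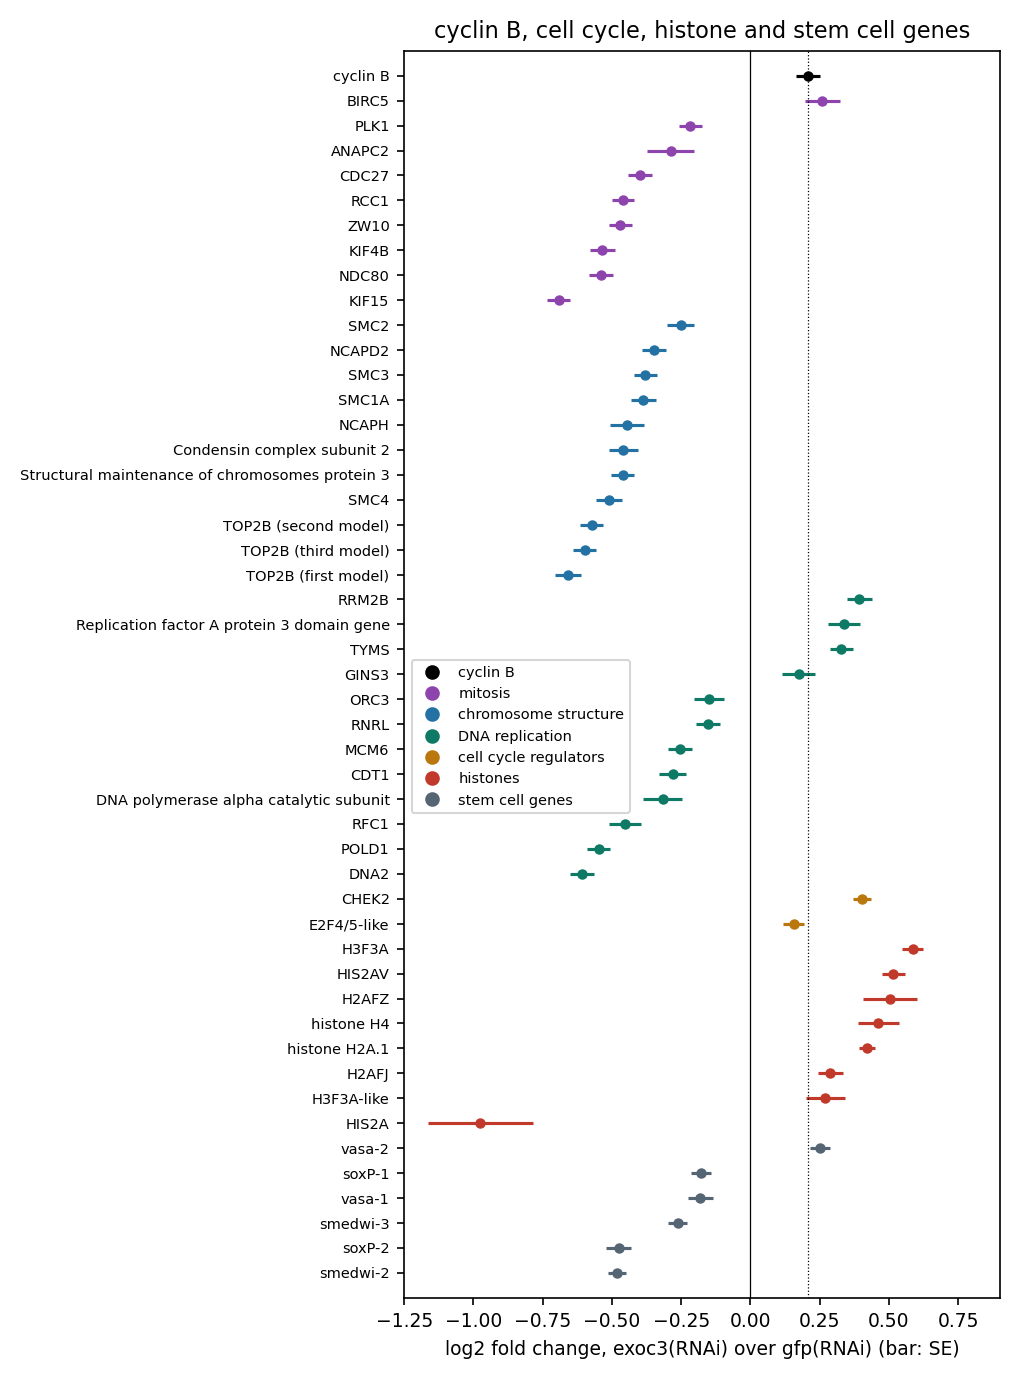
Log2 fold change with its SE, exoc3(RNAi) over gfp(RNAi), of cyclin B and of the mitotic, chromosome structure, DNA replication, cell cycle regulator, histone and stem cell genes, 1 gene to a line. The dotted line marks cyclin B at 0.21. Most mitotic genes and every chromosome structure gene lie left of 0, whereas 7 of 8 histone genes lie right of the dotted line.

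The genes for chromosome structure examined here, which shape and hold chromosomes through division, were all lower. All 11 listed models of condensin, cohesin and topoisomerase genes were called lower, beside 27.1% of all genes tested. Their log2 fold changes were -0.66 to -0.25, with a median of -0.46. As for the mitotic genes, their names came from an annotation of mainly changed genes, which largely presets that every one was called. The largest decreases were in models described as TOP2B, a topoisomerase that untangles DNA. Its first model (SMESG000037559.1) had 26.1, 25.1 and 24.6 CPM in exoc3(RNAi) against 39.0, 40.3 and 40.5 CPM in gfp(RNAi), a log2 change of -0.66 (SE 0.05, edgeR adjusted p = 1.45e-07). The third of its models (SMESG000064303.1) changed by -0.60 (SE 0.04, adjusted p = 8.76e-08). Several models shared a description, among them those of TOP2B and SMC3, and reads that aligned to more than 1 model were not counted, so these are not separate genes with certainty.

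DNA replication genes were split, with 4 of 12 called higher and 8 called lower, beside 25.8% and 27.1% of all genes tested, and a median log2 fold change of -0.20. The same annotation named them, so that all 12 were called says little. RRM2B (SMESG000014842.1), a small subunit of ribonucleotide reductase, had 181.3, 189.4 and 166.3 CPM in exoc3(RNAi) against 140.3, 132.6 and 136 CPM in gfp(RNAi), a log2 change of 0.39 (SE 0.05, edgeR adjusted p = 8.57e-06). The large subunit of that enzyme, RNRL (SMESG000029273.1), moved the other way at -0.15 (SE 0.04, adjusted p = 0.0107). TYMS (SMESG000063577.1), the thymidylate synthase, rose by 0.33. A gene with a domain of replication factor A protein 3 (SMESG000006818.1), part of the single-strand DNA binding complex, rose by 0.34 (SE 0.06, adjusted p = 0.000285).

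Replication enzymes made up most of the decreases. DNA2 (SMESG000005730.1), a helicase and nuclease, had 56.9, 55.5 and 52.1 CPM in exoc3(RNAi) against 83.5, 86.5 and 81.1 CPM in gfp(RNAi), a log2 change of -0.61 (SE 0.04, edgeR adjusted p = 1.31e-07). POLD1 (SMESG000033372.1), the catalytic subunit of polymerase delta, changed by -0.55 (SE 0.04, adjusted p = 2.24e-07). The calls of 3 replication genes depended on the processing. ORC3 was at -0.15 and lost its call without exoc3(RNAi) replicate 3 (-0.08, edgeR adjusted p = 0.0616) and without gfp(RNAi) replicate 1 (adjusted p = 0.0714), 2 (0.0672) or 3 (0.0973), and also with library size alone (adjusted p = 0.135). GINS3 was at 0.17 and lost its call without exoc3(RNAi) replicate 1 (adjusted p = 0.11) or 2 (0.0672) and without gfp(RNAi) replicate 1 (0.0994). RNRL lost it with library size alone (adjusted p = 0.054).

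Both regulators outside these lists were called higher, beside 25.8% of all genes tested. The same annotation of mainly changed genes named them, so that both were called says little. CHEK2 is given above, and the E2F4/5-like gene (SMESG000039870.1), of a transcription factor family that controls cell cycle genes, had 104.5, 98.5 and 103.3 CPM in exoc3(RNAi) against 88.4, 94.0 and 92.6 CPM in gfp(RNAi). The log2 change was 0.16 (SE 0.04, edgeR adjusted p = 0.00383), below that of cyclin B.

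Histone genes, whose products package DNA, were called higher in 7 of 8 models, beside 25.8% of all genes tested. The same annotation named them, so this count is not independent evidence. Those 7 also rose more than cyclin B, and the median log2 fold change over the 8 was 0.44. H3F3A (SMESG000049109.1), a replication-independent H3 in vertebrates, had 170.8, 162 and 178.1 CPM in exoc3(RNAi) against 112.4, 115 and 113.2 CPM in gfp(RNAi), a log2 change of 0.59 (SE 0.04, edgeR adjusted p = 7.06e-08). HIS2AV (SMESG000074553.1), a model named for a variant H2A, rose by 0.52 (SE 0.04, adjusted p = 3.86e-07). HIS2A (SMESG000049774.1) was the exception at -0.98 (SE 0.19, adjusted p = 0.000727), on only 30 to 77 reads a library. Histone genes are near-identical copies and reads shared between copies were not counted, and the libraries were made from polyadenylated RNA, so these values are uncertain.

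The 6 stem cell genes named for this fraction were examined because cyclin B reads come from the same cells. Of them 1 was called higher and 5 were called lower, beside 25.8% and 27.1% of all genes tested. The smedwi-2 (SMESG000069984.1) and smedwi-3 (SMESG000081970.1) genes encode Piwi proteins of neoblasts and were at -0.48 (SE 0.03) and -0.26 (SE 0.03) on the log2 scale. The vasa-like helicase genes differed in sign, with vasa-1 (SMESG000067941.1) at -0.18 (SE 0.05) and vasa-2 (SMESG000049071.1) at 0.25 (SE 0.04). Of the transcription factor genes, soxP-1 (SMESG000010063.1) was at -0.18 (SE 0.04) and soxP-2 (SMESG000074761.1) at -0.48 (SE 0.05). The adjusted p-values of these 6 genes by edgeR were 0.00434 or less. They were picked as genes already known to change in this experiment, and a call adds no independent evidence.

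Cyclin B reads were therefore also taken per 100 reads of another gene in the same library, a measure that no scaling factor can move. Apart from scaling, each such log2 difference is about that of cyclin B less that of the other gene, and the genes were chosen with both changes known, so the ratios restate those changes within each library and are not further evidence of them. Per 100 smedwi-2 reads there were 4.1, 3.9 and 3.88 cyclin B reads in exoc3(RNAi) replicates 1, 2 and 3, against 2.48, 2.38 and 2.51 in gfp(RNAi). The difference was 0.69 on the log2 scale, and it was 0.66 to 0.70 when each library was left out in turn. The standard deviation was 0.04 in both groups, and exoc3(RNAi) replicate 3 lay beside replicate 2.

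The same held for the ratio to PLK1, with 46.3, 44.9 and 46.3 cyclin B reads per 100 PLK1 reads in exoc3(RNAi) against 34.7, 33.3 and 34.4 in gfp(RNAi). The difference was 0.43 on the log2 scale, and 0.41 to 0.44 when each library was left out. Replicate 3 of exoc3(RNAi) had the same ratio as replicate 1, although both genes had their lowest exoc3(RNAi) value there.

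Ratios to the other stem cell genes were higher in exoc3(RNAi) for those called lower themselves. Cyclin B reads per 100 reads of smedwi-3 were 5.27, 4.98 and 5.03 in exoc3(RNAi) against 3.76, 3.54 and 3.73 in gfp(RNAi). Per 100 reads of soxP-2 they were 154, 143 and 148 in exoc3(RNAi) against 98, 85.4 and 94.3 in gfp(RNAi). The log2 differences for smedwi-3, vasa-1, soxP-1 and soxP-2 were 0.47, 0.39, 0.39 and 0.68.

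Per 100 reads of vasa-2, which itself rose, there were 17.2, 16.8 and 16.8 cyclin B reads in exoc3(RNAi) against 18.2, 16.7 and 17.4 in gfp(RNAi). These groups overlapped, with a log2 difference of -0.04 that was -0.07 to -0.01 when each library was left out. Of the 7 genes used, the 6 called lower gave ratios that did not overlap between the groups, and vasa-2, the 1 called higher, gave the ratio that did.

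**Figure D4:**
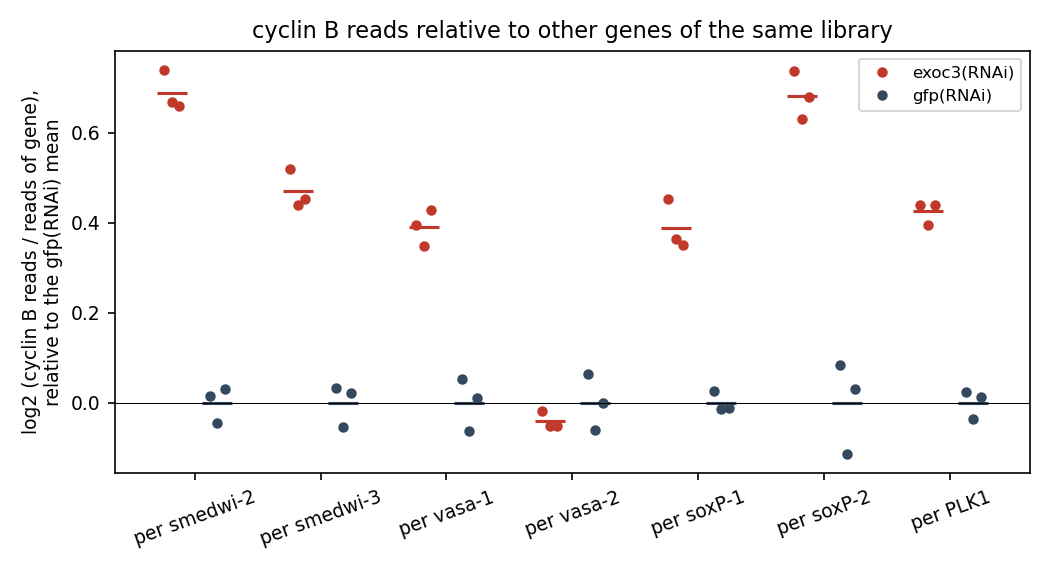
Log2 ratio of cyclin B reads to the reads of 7 other genes in the same library, set relative to the gfp(RNAi) mean of each ratio. Each point is a library, exoc3(RNAi) on the left of each pair, and lines are group means. The exoc3(RNAi) libraries are higher for smedwi-2 (difference 0.69), smedwi-3, vasa-1, soxP-1, soxP-2 and PLK1 (0.43), and overlap gfp(RNAi) for vasa-2.

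The study placed cyclin B in a published neoblast gene list, of which it kept the genes that had changed in these libraries. Of the other 259 genes of that list 106 were called higher and 153 lower, beside 25.8% and 27.1% of all genes tested. Of all called genes 51.2% were lower. The median log2 fold change of the 259 was -0.16. Cyclin B was thus among the smaller number that rose, and 67 of the 259 rose by more. Since the study chose these genes on the same libraries, that every one was called is not a result.

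The genes whose values followed cyclin B most closely over the 6 libraries were found by the root mean square difference of centred log2 CPM among the 7700 genes that averaged 10 CPM or more. The median difference was 0.156 and the first percentile was 0.041. The nearest was the gene for chromobox protein 5 (SMESG000004606.1), the name of a heterochromatin protein in vertebrates, at a difference of 0.018. It had 1255, 1249 and 1135 CPM in exoc3(RNAi) replicates 1, 2 and 3, against 1095, 1040 and 1059 CPM in gfp(RNAi). Its libraries thus fell in the same order as those of cyclin B, with exoc3(RNAi) replicate 3 lowest of its group and gfp(RNAi) replicate 2 lowest of all.

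Next came SMESG000018460.1, which had no description, at a difference of 0.020, with 27.1, 26.1 and 25.1 CPM in exoc3(RNAi) against 23.4, 21.7 and 22.7 CPM in gfp(RNAi). The third was the gene for nucleoporin 35kDa (SMESG000071542.1), a part of the nuclear pore, at 0.021, with 59.3, 57.3 and 53.7 CPM in exoc3(RNAi) against 50.3, 49.2 and 49.0 CPM in gfp(RNAi). The third described gene was aminoacylase 1 (SMESG000028017.1), an enzyme that removes acyl groups from amino acids, at 0.023. None of these was among the mitotic, chromosome structure or replication genes named above. The 10 nearest genes were identical with library size alone. A scaling factor shifts every gene of a library alike and largely cancels in this difference, so that agreement was preset. Likeness over 6 libraries of 2 groups is a description only.

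Markers of other cells that the sorted fraction could hold also moved between the groups. All 20 genes of an epidermal progenitor list were called lower, beside 27.1% of all genes tested. Their summed level was 1525 to 1579 CPM in exoc3(RNAi) libraries against 3079 to 3165 CPM in gfp(RNAi) libraries. The largest decreases were those of pmp-4 (SMESG000042765.1) at -1.77 (SE 0.05, edgeR adjusted p = 1.44e-10) and pmp-8 (SMESG000018472.1) at -1.53 (SE 0.05, adjusted p = 1.49e-10). This list had been selected by change in the same libraries, so its count is not independent evidence.

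Of 4 muscle markers 1 was called higher and 3 were called lower, beside 25.8% and 27.1% of all genes tested, with sums of 283.3 to 293.2 CPM in exoc3(RNAi) against 342.5 to 347.2 CPM in gfp(RNAi). The second MYH15 model (SMESG000056451.1), of a myosin heavy chain, rose by 0.71 (SE 0.07), whereas the second model of the tropomyosin gene TM1 (SMESG000041543.1) was at -0.53 (SE 0.04) and the first MYH15 model (SMESG000013389.1) at -0.36 (SE 0.03), with edgeR adjusted p-values up to 2.31e-06. Of 5 neuronal markers 2 were called higher and 3 lower, beside 25.8% and 27.1% of all genes tested. Their sums, 469.5 to 494.3 CPM in exoc3(RNAi) against 479.2 to 485.2 CPM in gfp(RNAi), overlapped. PC2 (SMESG000008070.1), a prohormone convertase, made up most of these sums, averaging 290.4 CPM in exoc3(RNAi) and 266.3 CPM in gfp(RNAi). The median log2 change of the 5 markers over the gfp(RNAi) mean was -0.236 to -0.214 in exoc3(RNAi) libraries. In gfp(RNAi) libraries it was -0.028 to 0.027, without overlap. Of the synaptic vesicle genes SYT1 (SMESG000025329.1) was at 0.33 (SE 0.04), Synaptotagmin-1 (SMESG000055143.1) at -0.34 (SE 0.04) and SYN2 (SMESG000063523.1) at -0.23 (SE 0.03). SNAP25 (SMESG000034282.1), of synaptic vesicle fusion, was at -0.28 (SE 0.06) and PC2 at 0.12 (SE 0.04). All 5 had an edgeR adjusted p of 0.00989 or less. The muscle and neuronal markers were also named by the annotation of mainly changed genes, so their counts are not independent evidence. No defining marker of these lists was at 0. The part of these cell types in the cyclin B result was not tested.

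The cyclin B increase was called under all 14 alternative settings tried, with log2 fold changes of 0.17 to 0.26. DESeq2 gave 0.20 (adjusted p = 0.000271), and scaling by relative log expression gave 0.21 (edgeR adjusted p = 0.00149).

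**Figure D5:**
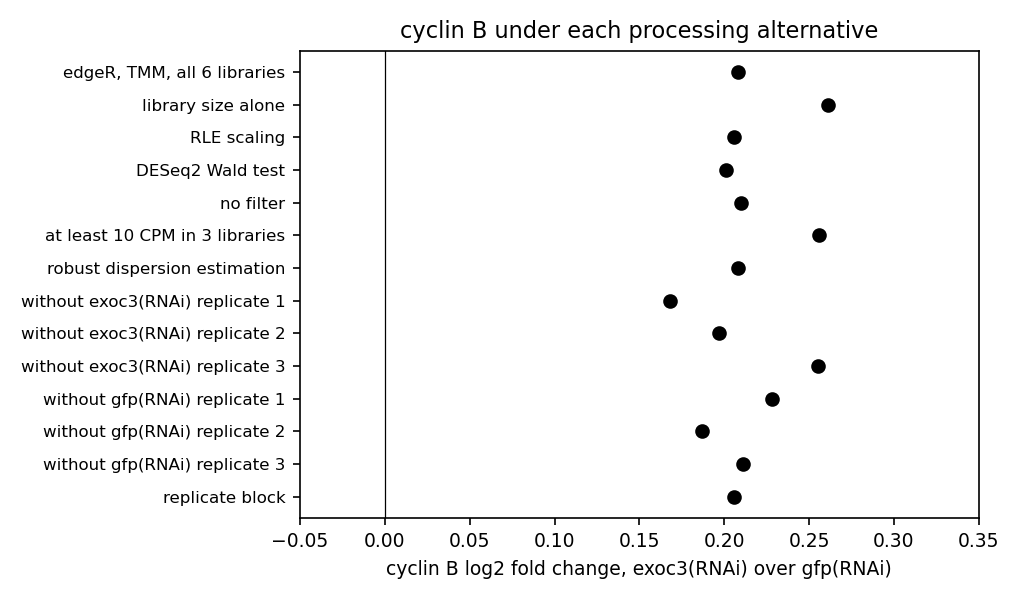
Log2 fold change of cyclin B, exoc3(RNAi) over gfp(RNAi), under each way of processing the counts, 1 point to a line, with the edgeR test on all 6 libraries at the top. All points lie right of 0, between 0.17 without exoc3(RNAi) replicate 1 and 0.26 with library size alone.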

How the data were processed

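The data are mRNA sequencing libraries of X1 cells, 3 of exoc3(RNAi) and 3 of gfp(RNAi) worms. The authors used bcl2fastq 1.8.4, aligned reads with STAR 2.7.2b to the dd_Smes_g4 genome and counted them with featureCounts 1.6.5 on the repeat-filtered smes_v2_SMEG annotation, reverse strand. Multi-mapping reads and reads on more than 1 gene were left uncounted. The deposited values are raw counts per gene model, without normalisation.

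The present tests used edgeR 4.0.16 in R 4.3.3. The 14700 genes that passed filterByExpr (minimum count 10) were scaled by TMM, and the groups were compared over all 6 libraries by the quasi-likelihood test without covariates, with Benjamini-Hochberg adjustment and a threshold of 0.05. CPM are TMM-scaled unless stated. DESeq2 1.42.0 served as an alternative. The procedure was tested on simulated data. No pair of libraries differed by sampling noise alone (chi-square per degree of freedom 1.33 to 7.75 within groups), so all were kept. The closest pairs were gfp(RNAi) replicates 2 and 3 (1.33) and exoc3(RNAi) replicates 1 and 2 (1.36). Replicate 3 of exoc3(RNAi) was at 7.75 and 7.05 from replicates 1 and 2. The p-values measure the spread between these samples, and whether that equals the spread between separate animals was not tested.

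Names came from the study's tables, which describe 1572 gene models, mainly changed ones. Cyclin B, its gene lists and the comparisons were chosen with earlier results of these data known. The lists do not hold every gene of their kind in those tables. They leave out, for example, the genes for cohesion protein PDS5 B-B (SMESG000002587.1) and protein regulator of cytokinesis 1 (SMESG000006500.1). Named genes were cyclin B, Smed-exoc3, 6 stem cell genes, PLK1, BIRC5, CDC27, ANAPC2, the 2 called genes of largest increase and decrease per list, and the nearest genes in pattern. ZW10, KIF4B, RCC1, TYMS, ORC3, GINS3, RNRL, SYN2 and the genes nearest in read count were named outside this rule, after their values were seen. Columns of the authors' own fold changes and p-values were not used.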

Additional observations from a re-analysis of the deposited data

How the results depend on the processing

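The alternatives were library size alone, relative log expression, DESeq2, no filter, a filter of 10 CPM in 3 libraries, robust dispersion, a threshold of 0.01, each library left out and a replicate block. The cyclin B log2 fold change, 0.21, kept its call in all 14, and ranged over 0.17 to 0.26 with 1 library left out. Replicate numbers were not treated as pairs, since same-numbered libraries did not deviate together (correlations across genes of -0.0083, 0.014 and -0.026). With the replicate block cyclin B was at 0.21 (edgeR adjusted p = 0.00125), and 7642 genes were called, 7506 of them among the 7784. With 1 library left out 6642 to 8115 genes were called. With library size alone 42.7% of calls were lower in exoc3(RNAi), against 51.2% by TMM. For 78 other genes 1089 gene and setting pairs were computed, of which 16 lost a call, in 6 genes, and 0 changed direction. ANAPC2 (edgeR adjusted p = 0.0113), RNRL (0.0107), GINS3 (0.0231) and ORC3 (0.0345) lost their calls at the threshold of 0.01, ORC3 also with the filter of 10 CPM (0.096), PC2 without exoc3(RNAi) replicate 1 (0.10, edgeR adjusted p = 0.0602) and prog-1 with robust dispersion (adjusted p = 0.0927). Read ratios use no scaling, so only leaving out libraries applied to them. Reads shared by close copies were not counted, and which B-type cyclin the model is was not settled.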
